A study of Arabidopsis thaliana with 13 samples.

Results

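DELLA proteins hold back growth and germination, and their transcripts were followed here through the seeds of one Arabidopsis thaliana accession. The 5 DELLA genes of Arabidopsis were taken by name from the annotation, as members of the family: GAI (AT1G14920), RGA1 (AT2G01570, also known as RGA), RGL1 (AT1G66350), RGL2 (AT3G03450) and RGL3 (AT5G17490). They are 5 of 37184 genes in the dry seed table and 5 of 37336 genes in the single-seed tables. All seeds were of the accession Col-0 and had been after-ripened, that is, stored until primary dormancy was lost. Dry seeds from 4 biological replicas were each sorted into small, medium and large seeds, which gave 12 libraries made from pools of seeds (the 4 replicas are called pools 1 to 4). Small and large seeds were also imbibed at 30 °C in the dark, a treatment that induces secondary dormancy, and were then sequenced as single seeds. One group of each size was taken after 3 days (3d) and the other after 7 days followed by 24 h in constant light (7d24h), with 3 libraries of 32 seeds in each of the 4 groups, 384 seeds in all. The 3 libraries of a group are parts of one set of 96 seeds and not separate treatments, which limits every test on the single-seed libraries below.

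Gibberellin promotes germination by removing DELLA proteins. The hormone binds a GID1 receptor, the receptor then binds the DELLA domain at the start of the repressor, and the F-box protein SLY1 marks the repressor for destruction. RGL2 is known as the main DELLA repressor of germination in the light, GAI and RGA1 add to the repression of germination in the dark and also restrain stem growth, and RGL3 is known for its link with jasmonate responses. DELLA proteins do not bind DNA themselves and act through the transcription factors they bind, such as the PIF proteins. Because the proteins are controlled largely by their stability, the transcript levels given here are not protein levels.

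Each of the 5 genes has a single exon in the TAIR10.1 annotation and 1 transcript, and no other gene overlaps any of them. GAI lies on chromosome 1 at chr1:5148982-5151415 on the plus strand and codes for 533 residues, and RGL1 lies on the same strand at chr1:24748105-24750186 and codes for 511. RGA1 lies at chr2:255247-257568 (587 residues), RGL2 at chr3:819337-821652 (547 residues) and RGL3 at chr5:5763989-5766246 (523 residues), all 3 on the minus strand. The coding bases around the motif that names the family are shown because they set the members apart, each written 5′ to 3′ on the strand of its gene, with the 5 codons of the motif in capitals.
GAI, chr1:5149477-5149527, plus strand: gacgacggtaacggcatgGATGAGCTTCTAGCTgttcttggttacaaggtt
RGA1, chr2:257183-257233, minus strand: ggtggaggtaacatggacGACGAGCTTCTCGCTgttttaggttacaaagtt
RGL1, chr1:24748402-24748452, plus strand: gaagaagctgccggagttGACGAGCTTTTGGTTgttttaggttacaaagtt
RGL2, chr3:821118-821168, minus strand: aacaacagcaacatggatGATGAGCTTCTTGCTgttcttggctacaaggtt
RGL3, chr5:5765756-5765806, minus strand: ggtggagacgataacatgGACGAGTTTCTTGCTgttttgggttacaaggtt

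The capitals translate to the 5 letters of the family name in GAI, RGA1 and RGL2, and differ from it at 1 residue or more in RGL1 and RGL3. Over the whole proteins, GAI and RGA1 were the most alike pair with 74.2% identical residues, followed by RGL2 and RGL3 with 69.8%. RGL1 shared 62.6% with RGL2 and 61.5% with RGL3, and the other pairs shared 53.9% to 59.1%. At the level of bases the genes are distinct, since none of the windows of 55 bases in any of the 5 transcripts was found in another member or elsewhere in the genome. Reads of 55 bases or more could therefore be told apart between GAI and RGA1, whose values moved together in what follows.

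Values are counts of 3′ reads on each gene. They are given as CPM, the count of a gene divided by all counts on genes and multiplied by 1000000, scaled between libraries by the trimmed mean of M values (TMM), and the dry and single-seed tables were scaled separately. A count from a 3′ library does not depend on transcript length in the way that whole-transcript counts do. Levels of different genes were not tested against each other, and sums, ratios and detection over members are descriptions. Dry libraries held 554305 to 2079317 counts on genes. Single seeds held 3962 to 463684, with group medians of 74285 (small, 3d), 73259 (large, 3d), 134462 (small, 7d24h) and 128786 (large, 7d24h). The summed level of 7 seed maturation genes was 210357 to 263453 CPM in the 3d libraries and 12091 to 23650 CPM in the 7d24h libraries, and 3 flower genes reached at most 2.76 CPM in any library, as background for material that is seed. In whole seeds, fewer cells of a type and less RNA per cell cannot be told apart.

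In seeds after 3 days of dormancy induction, the transcripts of GAI and RGA1 were several times more abundant in small seeds than in large seeds, and those of RGL2 and RGL3 were not. The small seed libraries held 187, 165 and 85.0 CPM of GAI and the large seed libraries 23.4, 30.2 and 29.5 CPM. The lowest library of small seeds lay far above the highest library of large seeds. RGA1 stood at 112, 99.04 and 66.9 CPM in small seeds and at 19.7, 27.5 and 23.4 CPM in large seeds. Again the groups did not overlap, and the third library of small seeds was the lowest of its group for both genes.

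**Figure D1:**
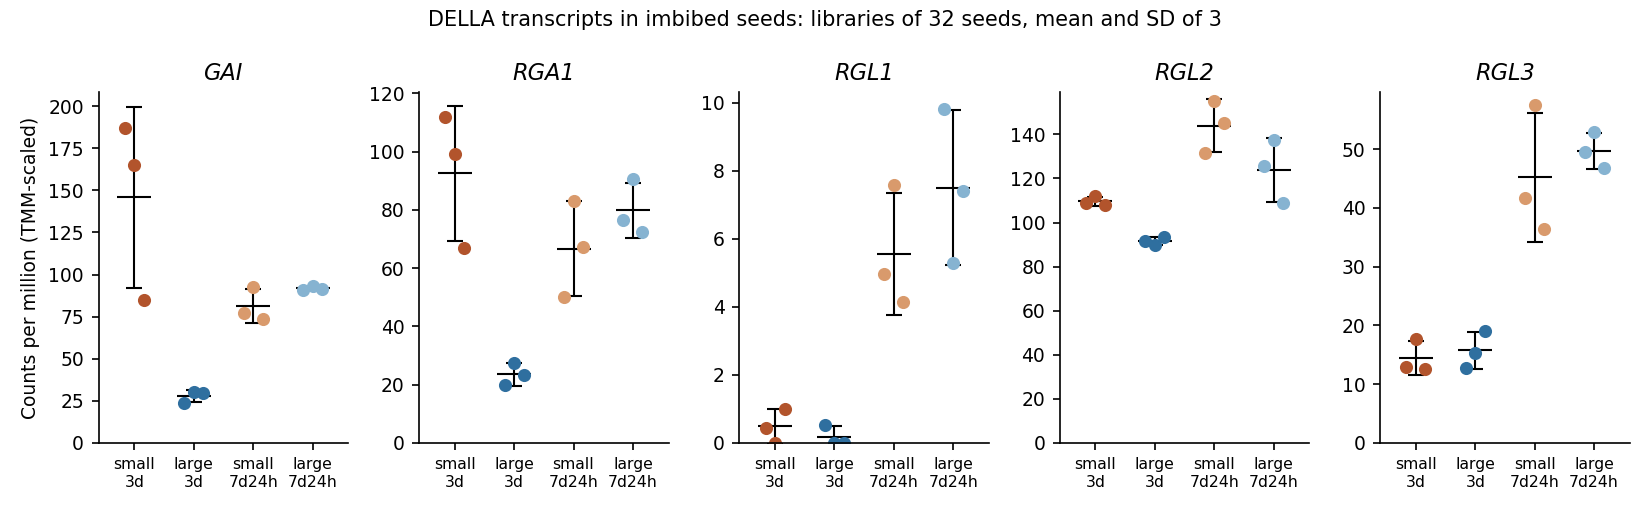
TMM-scaled CPM (y axis) of the 5 DELLA genes in the 12 single-seed libraries, with a point for each library of 32 seeds and the mean and SD of 3 libraries for each size and time point (x axis). GAI and RGA1 are low only in large seeds at 3d among these 4 groups (means 27.7 and 23.5), while RGL1 and RGL3 are low at 3d in both sizes.

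The difference between small and large seeds at 3d was tested with edgeR's quasi-likelihood test over all 16002 genes that passed the filter on low counts, taking the Benjamini-Hochberg false discovery rate (FDR) as the adjusted p-value and calling genes below 0.05. GAI was higher in small seeds by 2.39 on the log2 scale (SE 0.24, FDR = 0.000173), a 5.24-fold difference, and ranked number 4 of all genes by p-value. RGA1 was higher by 1.97 (SE 0.23, FDR = 0.000678), a 3.92-fold difference, and ranked number 7. Against these 2 calls among 5 members, 0.344% of all genes tested were called in this comparison (55 genes). Leaving out any 1 library at 3d left GAI between 2.16 and 2.66 and RGA1 between 1.81 and 2.16, both called each time. At 3d the ranges of the seed maturation genes overlapped between sizes (210357 to 263453 CPM in small seed libraries, 217173 to 247319 in large), as did the ribosomal protein share (1.5002% to 1.697% and 1.48% to 1.58% of counts) and 5 genes of green tissue (123 to 148 and 102 to 125 CPM).

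RGL2, the member best known for repressing germination, was nearly level between the sizes at 3d. Its libraries stood at 109, 112 and 108 CPM in small seeds and at 91.5, 89.8 and 93.3 CPM in large seeds, so that the groups did not overlap although the difference was small. The fitted difference was 0.26 on the log2 scale (SE 0.12, FDR = 0.480), with an approximate 95% interval of 0.03 to 0.49 before adjustment for the number of genes. RGL3 stood at 12.9, 17.7 and 12.6 CPM in small seeds and at 12.8, 15.3 and 19.1 CPM in large seeds, and these ranges overlapped. Its difference was -0.15 (SE 0.25, FDR = 0.888). RGL1 was close to absent at 3d, with 3 counts over all libraries of small seeds against 1 count for large seeds. These were too few to compare the sizes (ratio 2.94 without TMM scaling, counting interval 0.236 to 155).

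After 7 days of induction and 24 h in light, no member differed between the sizes by edgeR's test or by DESeq2, and 0 of 5 had an unadjusted p below 0.05, against 19.0% of all genes tested. At FDR below 0.05, 2.26% of all genes were called (362 genes). GAI stood at 77.2, 92.8 and 73.7 CPM in small seeds and at 91.0, 93.0 and 91.5 CPM in large seeds. The small seed libraries reached into the range of the large ones, and the fitted difference was -0.18 (SE 0.20, FDR = 0.673, approximate 95% interval -0.57 to 0.22). RGA1 stood at 50.0, 82.9 and 67.2 CPM against 76.6, 90.4 and 72.3 CPM, with a difference of -0.26 (SE 0.19, FDR = 0.482, interval -0.63 to 0.11). These intervals lie well below the differences of the same genes at 3d, and the test of that change is given with the time courses.

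RGL2 at 7d24h stood at 132, 155 and 145 CPM in small seeds and at 126, 138 and 109 CPM in large seeds, and its difference of 0.22 (SE 0.11, FDR = 0.298) was close to that at 3d. RGL3 stood at 41.8, 57.5 and 36.4 CPM against 49.5, 52.9 and 46.8 CPM (difference -0.13, SE 0.16, FDR = 0.689), with overlapping ranges. RGL1, now detected, stood at 4.97, 7.58 and 4.14 CPM against 9.82, 5.28 and 7.41 CPM (difference -0.42, SE 0.34, FDR = 0.528).

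Between 3d and 7d24h, all 5 members passed the test in both sizes, but in a transcriptome where most genes did. In small seeds 61.0% of all genes tested were called, 32.7% as higher at 7d24h. In large seeds 66.0% were called, 35.1% as higher. These comparisons share their libraries with those between the sizes. Counts of members called are therefore read here only by their direction and size. The proportion of counts on 216 cytosolic ribosomal protein genes moved from 1.48% to 1.70% in the 3d libraries to 8.93% to 12.7% in the 7d24h libraries, beside the fall in seed maturation transcripts given above, and their part in the member changes was not tested.

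GAI moved in opposite directions in small and large seeds over this interval, and RGA1 rose in large seeds with no stable change in small seeds. In large seeds GAI rose by 1.72 on the log2 scale (SE 0.23, FDR = 1.15e-05) from a mean of 27.7 ± 3.74 to 91.8 ± 1.03 CPM (SD, n = 3). In small seeds it fell by 0.85 (SE 0.21, FDR = 0.00236) from 146 ± 53.8 to 81.2 ± 10.2 CPM (SD, n = 3). The TMM factors of the small seed libraries were 0.725 to 0.855 at 3d and 1.21 to 1.27 at 7d24h. The fall of GAI is therefore smaller without this scaling. Over the alternative analyses its fitted change was -1.24 to -0.59. The lowest small seed library at 3d, at 85.0 CPM, lay within the range of the small seed libraries at 7d24h, whereas in large seeds the time points were far apart. RGA1 rose in large seeds by 1.75 (SE 0.22, FDR = 6.01e-06) from 23.5 ± 3.92 to 79.8 ± 9.47 CPM (SD, n = 3). In small seeds RGA1 went from 92.5 ± 23.1 to 66.7 ± 16.4 CPM (SD, n = 3), with a fitted change of -0.47 (SE 0.20, FDR = 0.0469). That last call was lost in 5 alternative analyses, with FDR up to 0.382, and without 4 of 6 libraries in turn, and the libraries of the 2 time points overlapped.

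The difference in time course between the sizes, tested as an interaction, was -2.57 for GAI (SE 0.31, FDR = 0.00129) and -2.23 for RGA1 (SE 0.30, FDR = 0.00228). Of all genes tested, 0.331% were called in the interaction (53 genes), and GAI and RGA1 ranked number 7 and number 13 by p-value. The interaction uses the same 3d libraries as the comparison of sizes at 3d, and 26 genes were called in both. RGL2 and RGL3 followed the same course in both sizes within the error of the test, with interactions of -0.04 (SE 0.16, FDR = 0.954, interval -0.36 to 0.27) and 0.02 (SE 0.29, FDR = 0.994, interval -0.55 to 0.59). For RGL1 the interaction was -1.86 with an SE of 1.51, so that little could be said of it at this depth (FDR = 0.691).

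RGL1 and RGL3 were higher at 7d24h in both sizes. RGL3 rose by 1.66 in small seeds (SE 0.20, FDR = 5.61e-06) and by 1.64 in large seeds (SE 0.20, FDR = 3.31e-06), from means of 14.4 ± 2.89 and 15.7 ± 3.18 to 45.2 ± 10.9 and 49.7 ± 3.10 CPM (SD, n = 3). Every 7d24h library of RGL3 lay above every 3d library. RGL1 rose from 3 to 99 counts in small seeds, a ratio of 18.7 between the summed levels (counting interval 6.23 to 92.4), and from 1 to 135 counts in large seeds, a ratio of 73.5 (13.0 to 2923). Its fitted changes were 3.46 (FDR = 0.000375) and 5.32 (FDR = 2.47e-05). Counting intervals cover counting error only.

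RGL2 showed the smallest change with time of the 5 members in the fit, 0.39 in small seeds (SE 0.11, FDR = 0.00740) and 0.44 in large seeds (SE 0.11, FDR = 0.00357). The means went from 109.6 ± 2.14 to 144 ± 11.9 CPM in small seeds and from 91.5 ± 1.74 to 124 ± 14.5 CPM in large seeds (SD, n = 3). No 3d library reached the level of a 7d24h library of the same size. The change depended on the processing in both directions. Over the alternative analyses it was 0.01 to 0.95 in small seeds and -0.05 to 1.09 in large seeds. The median seed, without TMM scaling, went from 85.8 to 167 CPM in small seeds and from 67.3 to 138 CPM in large seeds. In small seeds the fitted change was 0.28 when seeds were thinned to 20000 counts and was no longer called (FDR = 0.180). With only genes that averaged 1 count per seed or more and also passed the filter on intergenic reads, it was 0.01 in small seeds and -0.05 in large seeds, neither of them called. GAI, RGA1 and RGL3 kept their direction and call under that filter, and RGL1 could not be fitted.

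**Figure D2:**
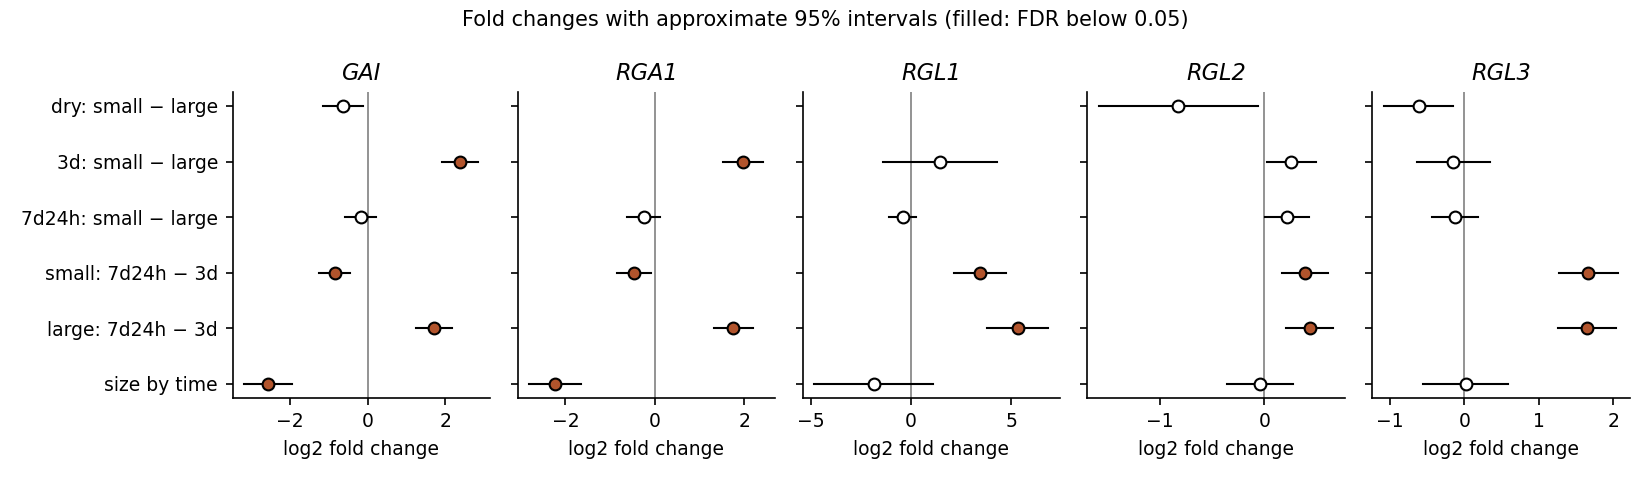
Log2 fold changes (x axis) of the DELLA genes in each comparison (y axis), with approximate 95% intervals and filled points for FDR below 0.05. GAI and RGA1 stand apart at 3d (2.39 and 1.97) and in the interaction (-2.57 and -2.23), while RGA1 and RGL1 have no dry seed values because they did not pass the filter on low counts there.

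On TMM-scaled values, the order of the groups was thus of 2 kinds. For GAI and RGA1, large seeds at 3d were the lowest, the 2 groups at 7d24h were next and did not differ from each other beyond their spread, and small seeds at 3d had the highest mean, although their lowest library lay among those at 7d24h. For RGL1, RGL2 and RGL3 both groups at 7d24h had higher means than both at 3d. The summed level of all 5 members was 363 ± 78.5 CPM in small seeds at 3d, 159 ± 9.40 in large seeds at 3d, 343 ± 47.4 in small seeds at 7d24h and 353 ± 26.2 in large seeds at 7d24h (SD, n = 3). The TMM factors were 0.725 to 0.867 at 3d and 1.21 to 1.28 at 7d24h. Without them the 3d levels are lower against those at 7d24h, so these sums and the place of small seeds at 3d depend on the scaling. In CPM of the seed, not TMM-scaled, the median for RGA1 was 66.4 in small seeds at 3d and 76.7 in large seeds at 7d24h. The ratio of RGA1 to GAI counts within a library was 0.661 ± 0.109 in small seeds at 3d, 0.848 ± 0.0585 in large seeds at 3d, and 0.818 ± 0.147 and 0.868 ± 0.0940 in small and large seeds at 7d24h (SD, n = 3).

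The single seeds show whether the difference at 3d came from a few seeds or from most of them. GAI had at least 1 count in 96 of 96 small seeds and in 75 of 96 large seeds at 3d. The median seed held 108 CPM of GAI among small seeds and 21.3 CPM among large seeds, each relative to its own total. RGA1 had a count in 93 of 96 small seeds and in 58 of 96 large seeds, with medians of 66.4 and 15.1 CPM. The highest large seed reached 105 CPM of GAI, which is below the median of the small seeds. The lower quartile of small seeds was 76.5 CPM of GAI, above the upper quartile of large seeds at 31.4 CPM.

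**Figure D3:**
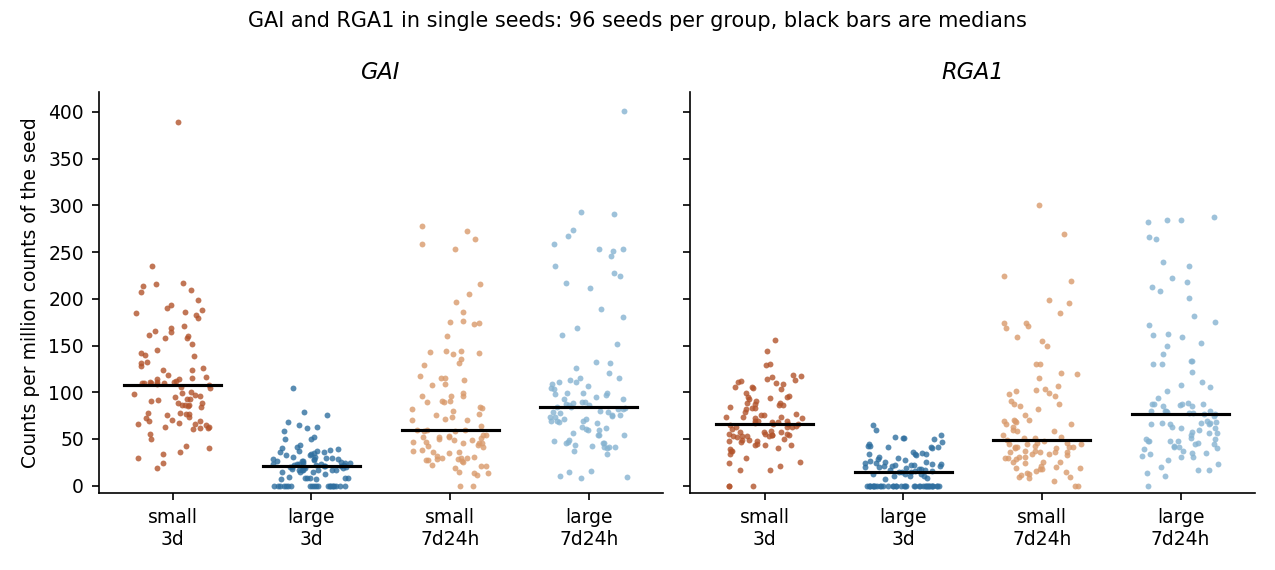
CPM of the seed (y axis) of GAI and RGA1 in each of 96 seeds per group (x axis), with black bars at the medians. For GAI the medians of small and large seeds are 108 and 21.3 at 3d and 59.8 and 83.8 at 7d24h. The highest seeds for GAI are at 390 and 105 at 3d and at 278 and 401 at 7d24h. For RGA1 the highest seeds are at 156 and 64.7 at 3d and at 300 and 288 at 7d24h.

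The share of seeds with a count depends on depth, so each seed was also thinned to 20000 counts, which left out 6 seeds below that depth (1 small and 4 large seeds at 3d, 1 small seed at 7d24h). After thinning, GAI was found in 89.5% of small and 42.4% of large seeds at 3d and RGA1 in 76.8% and 30.4%. At 7d24h the shares were 69.5% and 81.3% for GAI and 64.2% and 76.0% for RGA1. Over libraries, the shares at 3d did not overlap between sizes and differed by 46.95 percentage points for GAI and 46.19 for RGA1. With 3 libraries against 3 the smallest p an exact two-sided permutation test can give is 0.1, which both reached (adjusted over 20 comparisons, 0.222).

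RGL2 was found in 83.2% of small and 77.2% of large thinned seeds at 3d and in 97.9% and 90.6% at 7d24h, the widest detection of the 5 members at the later time. RGL3 was found in 15.8% and 22.8% at 3d and in 41.1% and 53.1% at 7d24h. RGL1 had a count in 3 of 96 small and 1 of 96 large seeds at 3d before thinning and in 38 and 47 of 96 seeds at 7d24h, never with more than 11 counts in a seed.

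Among the seeds of one library at 7d24h, the levels of all 5 members went along with the share of counts on ribosomal protein genes, whose transcripts are known to accumulate as seeds move toward germination. In the 3 libraries of small seeds Spearman's rho was 0.627 to 0.727 for GAI, 0.430 to 0.790 for RGA1, 0.481 to 0.726 for RGL1, 0.363 to 0.688 for RGL2 and 0.514 to 0.809 for RGL3. In large seeds it was 0.508 to 0.722, 0.383 to 0.660, 0.530 to 0.630, 0.245 to 0.808 and 0.687 to 0.831 for the same genes in that order. The median over the 4194 genes with at least 5 counts per seed on average lay between -0.0758 and 0.0376 in small seeds and between -0.199 and -0.106 in large seeds. This median does not show how many genes reach values like those of the members. RGL1 and RGL3 averaged under 5 counts per seed (0.620 and 4.91). Each rho rests on 31 or 32 seeds that share a library and whose depth differs. The ribosomal protein share itself had a rho of 0.0484 to 0.501 with the counts of the seed in small seeds and 0.207 to 0.476 in large seeds. For the members, rho with the counts of the seed was 0.118 (RGL2) to 0.581 (RGL3) in small seeds. In large seeds it was -0.237 (RGL2) to 0.410 (RGL1). RGL3 in small seed library 1 had 0.581 with the counts of the seed and 0.514 with the ribosomal protein share. The part of depth in the values was not tested.

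**Figure D4:**
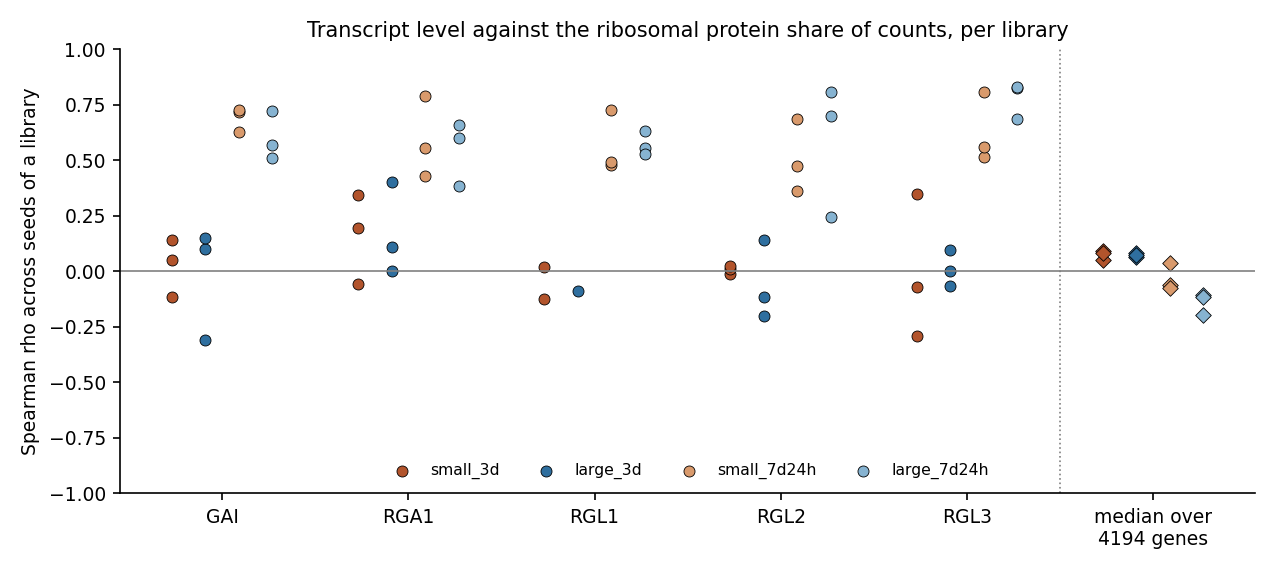
Spearman's rho (y axis) between the level of each DELLA gene and the ribosomal protein share of counts across the seeds of a library, with a point for each library of the 4 groups and diamonds for the median over the genes counted often enough. All points of the 7d24h libraries lie above 0.24 for all 5 genes, whereas those at 3d are lower and mostly scatter around 0, at lower counts per seed.

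At 3d the values were lower and mostly on both sides of 0. In small seeds rho was -0.115 to 0.141 for GAI, -0.0561 to 0.345 for RGA1, -0.0117 to 0.0238 for RGL2 and -0.290 to 0.346 for RGL3. In large seeds it was -0.310 to 0.149, 0.00317 to 0.401, -0.200 to 0.141 and -0.0662 to 0.0961 for the same genes, so that RGA1 was above 0 in all 3 libraries. RGL1 had too few counts at 3d for a value to be read. GAI and RGA1 varied together across seeds at 7d24h, with a rho of 0.370 to 0.842 for small and 0.574 to 0.758 for large seeds. This was not particular to them, since the other pairs among GAI, RGA1, RGL2 and RGL3 also varied together. In small seeds these pairs ranged from 0.278 (RGA1 with RGL2) to 0.811 (RGA1 with RGL3). In large seeds they ranged from 0.444 to 0.820 for the same pairs. At 3d the rho of GAI with RGA1 was 0.0872 to 0.267 in small seeds and -0.327 to 0.218 in large seeds, at lower counts per seed. Across the 12 libraries, by contrast, GAI and RGA1 were closely alike (Pearson's r = 0.970 of log2 CPM, a description over libraries that fall into 4 groups).

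In dry seeds the 3 members that could be tested, GAI, RGL2 and RGL3, had their lowest mean in small seeds, and none passed edgeR's test or DESeq2 between any sizes. Between small and large seeds, the unadjusted p was below 0.05 for 3 of 3, as it was for 28.5% of all genes tested. GAI stood at 25.3, 22.1, 16.2 and 11.9 CPM in the small seeds of pools 1 to 4, at 21.9, 21.4, 33.7 and 13.6 CPM in the medium seeds and at 26.5, 31.1, 24.9 and 31.5 CPM in the large seeds. Small and large seeds overlapped only through pool 1 of the small seeds. The fitted difference between small and large was -0.63 (SE 0.26, FDR = 0.0937, approximate 95% interval -1.14 to -0.13). This is the direction opposite to that of GAI at 3d, but the 2 tables were scaled separately and are only set side by side.

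RGL3 stood at 37.2, 40.2, 19.8 and 17.0 CPM in small seeds, at 47.2, 34.8, 30.8 and 42.7 CPM in medium seeds and at 37.5, 38.1, 34.1 and 57.8 CPM in large seeds. The ranges of small and large seeds overlapped, and the difference of -0.62 missed the threshold (SE 0.24, FDR = 0.0722). With upper-quartile scaling (FDR = 0.0388) or without the small seeds of pool 1 or of pool 2 it was called. RGL2 stood at 8.92, 6.03, 10.2 and 1.70 CPM in small seeds, at 10.4, 7.36, 20.2 and 11.8 CPM in medium seeds and at 14.4, 13.9, 8.65 and 20.3 CPM in large seeds. Its difference was -0.82 (SE 0.39, FDR = 0.152).

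**Figure D5:**
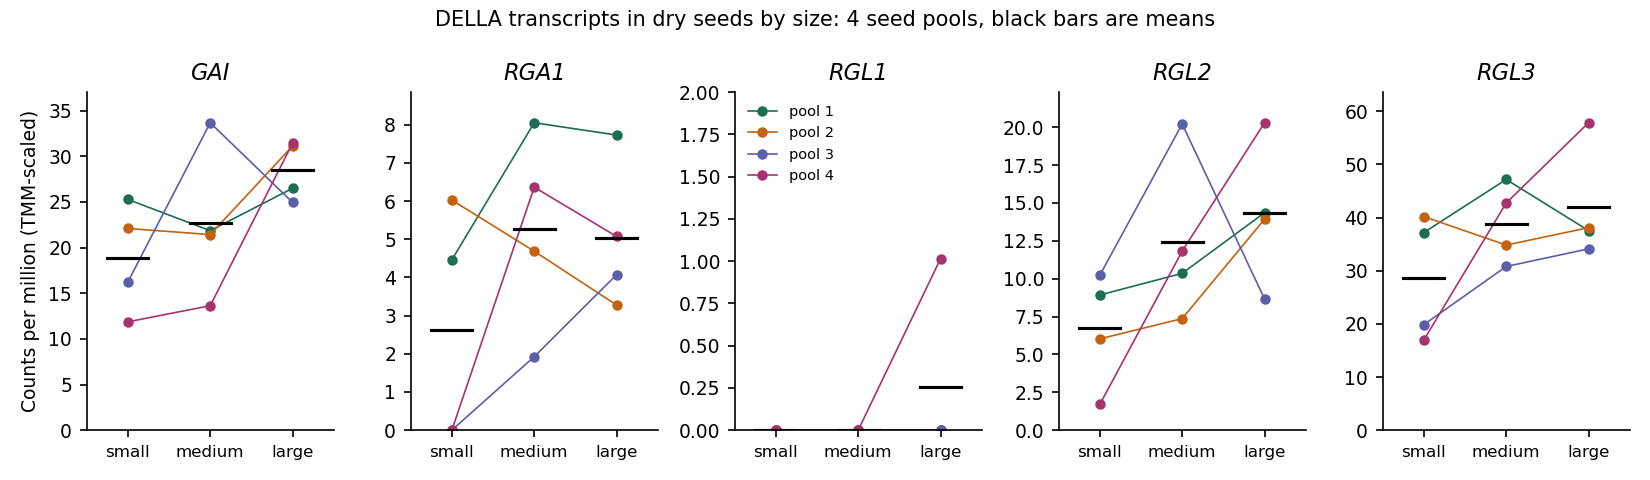
TMM-scaled CPM (y axis) of the 5 DELLA genes in dry seeds of 3 sizes (x axis), with a line for each of the 4 seed pools and black bars at the means. The means of GAI (18.9, 22.6 and 28.5), RGL2 and RGL3 increase with size while single pools cross, and RGL1 is at 0 in 11 of 12 libraries.

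RGA1 and RGL1 did not pass the filter on low counts in dry seeds. RGA1 had 3, 3, 0 and 0 counts in the small seeds, 7, 7, 2 and 7 in the medium seeds and 7, 8, 8 and 5 in the large seeds of pools 1 to 4. Scaled to depth these were 0 to 6.03 CPM in small, 1.92 to 8.05 CPM in medium and 3.28 to 7.73 CPM in large seeds, so that the sizes overlapped. With no filter the difference between small and large was -1.27 (SE 0.68, FDR = 0.384). RGL1 had a single count, in the large seeds of pool 4. Of all genes tested, 14.7% were called between small and large dry seeds (1211 genes, 697 higher and 514 lower in small seeds), 3.51% between small and medium and 0.146% between medium and large, beside 0 of 3 members in each. With upper-quartile scaling the first split was 503 higher and 703 lower.

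For the other dry seed contrasts, GAI differed by -0.29 between small and medium seeds (FDR = 0.634) and by -0.34 between medium and large seeds (FDR = 0.849). RGL3 differed by -0.53 between small and medium seeds (FDR = 0.260) and RGL2 by -0.66 (FDR = 0.437). In the same dry libraries the ribosomal protein share was 0.711% to 0.765% in small, 0.896% to 1.03% in medium and 1.11% to 1.31% in large seeds, and the seed maturation genes summed to 122336 to 183929 CPM (small seeds) and 66394 to 73007 CPM (large seeds). Both moved with size, and their part in the DELLA values was not tested.

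The steps around the DELLA proteins were followed through 51 genes in lists for gibberellin perception and DELLA turnover, synthesis, breakdown, factors that bind DELLA proteins and genes that respond to gibberellin. At 3d, 1 gene of these lists differed between the sizes by the test. It was GA2OX2, which codes for an enzyme that inactivates gibberellin, with 87.8 ± 23.9 CPM in small seeds against 23.1 ± 3.15 CPM in the large ones (SD, n = 3), a difference of 1.92 (SE 0.20, FDR = 0.000286). Its pattern over the groups recalled that of GAI only at 3d, since at 7d24h its means were 11.6 ± 1.43 CPM (small seeds) and 16.6 ± 2.30 CPM (large seeds) (SD, n = 3). GA2OX2 was also the only list gene called in the interaction (-2.44, FDR = 0.00123), a call that was lost when seeds were thinned to 20000 counts (FDR = 0.0971).

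None of the 5 perception genes tested, 9 synthesis genes, 16 binding factors or 10 responding genes differed between sizes at 3d. Their median differences were 0.02, -0.41, 0.02 and 0.21, against 0.01 over all genes tested. At 7d24h, PIF4, a light-signalling factor that DELLA proteins bind, was higher in small seeds by 0.76 (SE 0.18, FDR = 0.0365), and GASA4, a gibberellin-induced gene, was lower in small seeds by 1.73 on the log2 scale (fitted -1.73, SE 0.42, FDR = 0.0464). Each call was lost on leaving out a single library for 5 of the 6 libraries at that time. The GASA4 call was also lost with DESeq2 (FDR = 0.282), in seeds thinned to 20000 counts (FDR = 0.0723) and with the filter on intergenic reads (FDR = 0.0520). That of PIF4 was lost in thinned seeds (FDR = 0.411). The other perception, synthesis, breakdown, binding and responding genes tested at 7d24h were not called.

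On TMM-scaled values, the 5 tested genes of perception and turnover were all lower at 7d24h than at 3d in both sizes. The members RGL1 and RGL3 were higher. The 5 perception and turnover genes were named after their values were seen. Their falls are smaller without the scaling, whose factors are given above, and the direction of SLY1 in small seeds depends on it. The receptor genes GID1A (-1.84 in small and -1.74 in large seeds) and GID1C (-1.28 and -1.59) changed most, followed by SPY, which codes for a sugar transferase that acts on DELLA proteins (-0.83 and -1.07), with SLY1 (-0.52 and -0.73) and SEC (-0.68 and -0.68) below them. The median of this list was -0.83 in small and -1.07 in large seeds, against 0.06 over all genes. Of 9 synthesis genes, 2 were higher and 6 lower in small seeds and 2 higher and 5 lower in large seeds. Of 16 binding factors, 4 were higher and 8 lower in small seeds and 6 and 8 in large seeds. Of 10 responding genes, 5 were higher and 4 lower in small seeds and 5 and 3 in large seeds. Over all genes tested, 32.7% were called higher and 28.3% lower in small seeds, and 35.1% and 30.9% in large seeds.

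In dry seeds, SLY1 was lower in small than in large seeds on the log2 scale (fitted -1.001, SE 0.35, FDR = 0.0439), a call that was lost whenever any 1 library of the 2 sizes was left out. Among 11 binding factors, BOI, which codes for a RING finger protein that binds DELLA proteins (0.66, FDR = 0.00397), NF-YC3, a subunit of a CCAAT-binding factor (0.66, FDR = 0.00799), and ATML1, an epidermal homeobox factor (0.61, FDR = 0.0264), were higher in small seeds, and 1 was lower. The ATML1 call was lost with upper-quartile scaling, with no filter, in thinned libraries and without 5 of 8 libraries in turn (FDR up to 0.0817), that of NF-YC3 in thinned libraries and without the small seeds of pool 3 (FDR up to 0.0936), and that of BOI without the large seeds of pool 3 (FDR = 0.0515). The lower one, BRG3 (-0.55, FDR = 0.0274), is related to BOI and is named here after its value was seen. None of 3 synthesis and 4 responding genes differed between small and large dry seeds, and no list gene differed in the other 2 dry comparisons.

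The genes most like each member over the 12 single-seed libraries were sought among the 11110 genes whose mean reached 10 CPM (11111 for RGL1). For GAI they were RGA1 (r = 0.970), IAGLU (r = 0.940) and BIM1 (r = 0.931), and for RGA1 they were GAI, IAGLU (r = 0.921) and DDB1B (r = 0.887). IAGLU, which codes for a glucosyltransferase acting on auxin, stood at 33.7 ± 7.36 CPM (small seeds) and 9.65 ± 1.85 CPM (large seeds) at 3d and at 25.4 ± 1.56 and 28.5 ± 2.90 CPM at 7d24h (SD, n = 3). BIM1, a factor of brassinosteroid signalling, stood at 83.0 ± 13.6 and 22.9 ± 6.36 CPM at 3d and at 40.9 ± 4.16 and 45.8 ± 4.04 CPM at 7d24h (SD, n = 3). Both were thus lowest in large seeds at 3d, as GAI was. For RGL1 the nearest were APX3 (r = 0.992), AT3G14390 (r = 0.988) and AT2G47690 (r = 0.988), for RGL2 AT2G15240 (r = 0.956), ETP1 (r = 0.938) and ATKDSA2 (r = 0.923), and for RGL3 CYSC1 (r = 0.994), AT1G13730 (r = 0.993) and PMD2 (r = 0.990). These values describe libraries that fall into 4 groups.

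The bases before the transcription start of GAI are shown because it had the largest difference between sizes of the members called at 3d. The window holds the 250 bases up to the annotated start in TAIR10.1, written 5′ to 3′ on the strand of the gene.
GAI, chr1:5148732-5148981, plus strand: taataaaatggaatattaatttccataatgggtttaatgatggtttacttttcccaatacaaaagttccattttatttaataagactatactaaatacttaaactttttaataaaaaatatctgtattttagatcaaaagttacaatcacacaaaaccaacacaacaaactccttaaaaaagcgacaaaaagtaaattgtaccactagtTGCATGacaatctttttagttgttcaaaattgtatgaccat

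The capitals mark a match on the opposite strand to CATGCA, the core of the RY element of seed genes, at bases -41 to -36 from the start of GAI. Both strands were searched for 3 motifs, which do not overlap one another here: ACGTG (the core of the ABA response element), CATGCA and TAACAAA (the gibberellin response element of cereals). The windows of RGL1 and RGL2 held none of them. RGL3 held ACGTG at -190 to -186 and TAACAAA at -171 to -165, both on the opposite strand. Among 27443 windows of the same length before protein-coding genes, 22.9% held ACGTG, 8.43% CATGCA and 16.1% TAACAAA. A match is a description of letters, not of binding.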

How the data were processed

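The authors deposited count tables: whole-number counts of 3′ RNA-seq reads per gene, one column for each single seed or dry seed library, made from reads of libraries primed with barcoded oligo(dT). The submitters' processing notes name STAR 2.7.8a, Seurat, DESeq2 and the TAIR10 build. Whether molecular identifiers were collapsed is not given in the sources used here. The columns of the dry seed table were assigned to sizes and pools by their names (S, M or L with the pool number), which are library names in the study's primer table. Coordinates and sequences come from the RefSeq copy of TAIR10.1, and members were matched by locus tag. One upstream window is not reported here.

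Single-seed counts were summed over the 32 seeds of a library. Counts outside annotated genes (9.76%) and ambiguous counts (0.256%) were left out. edgeR 4.0.16 in R 4.3.3 was used with filterByExpr, TMM scaling and the quasi-likelihood test, in one fit for the 12 dry libraries (8234 genes) and one for the 12 single-seed libraries (16002 genes), with Benjamini-Hochberg adjustment and a threshold of FDR 0.05. Tests are two-sided. The study divided the 96 single seeds of a condition into 3 sequencing pools, so libraries of one group hold seeds treated together. Their p-values measure the spread between libraries, which may be technical, and not that between separately treated sets of seeds. The statistics were tested on simulated counts. Alternatives used DESeq2 1.42.0, limma 3.58.1 on log2(CPM + 10), other scalings and filters, thinning and leaving out each library.

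Members, lists and tests were chosen with earlier results of these data known. Named were the 5 members, up to 3 called genes of each pathway list with the largest change between sizes (dry small against large, 3d and 7d24h), and the 3 genes most like each member. Of 52 list genes 51 were kept, since the annotation gives another symbol for one. Ribosomal protein genes (216) were taken by annotation product or note, a choice made after reading the annotation.

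In the dry seeds, equal numbers mark one biological replica. Deviations of the 12 pairs of equal number correlated between -0.0501 and 0.116, with 2 of 12 over 0.1, and the seed pool as a block changed no call on a member. No 2 seeds had identical counts, and replicate libraries differed by more than sampling noise.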

Additional observations from a re-analysis of the deposited data

Results flagged for a closer look

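GAI changed between 3d and 7d24h in opposite directions in small and large seeds, with a tested difference of -2.57 on the log2 scale (higher in 3 of 3 small seed libraries than in any large seed library at 3d). For RGA1 the tested difference between the time courses was -2.23, with a rise in large seeds and no stable change in small seeds. In dry seeds, 13 sets of values of a member in a group of 4 libraries were examined for a library that stands apart, and chance alone gives about 1 in 20. In large dry seeds, RGL3 stood at 57.8 CPM in pool 4, and its gap to the next library was 0.832 of the whole range. RGL1 had 1 count in the same library and 0 in the other large seed libraries, so that the ratio is 1 by construction and says nothing of the library.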

How the results depend on the processing

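Over the alternatives and the libraries left out, 484 values of members kept their direction and call, 11 lost a call, 3 gained one and 18 changed sign. GAI and RGA1 kept their calls at 3d, in large seeds over time and in the interaction in every alternative run (GAI at 3d 2.05 to 2.42, RGA1 1.74 to 2.12). Among dry small against large seeds the number of members called was 0, and 1 with upper-quartile factors, with a range of 0 to 1 when libraries were left out. In small seeds over time it was 5, and 3 in genes that averaged 1 count per seed or more, with that and the filter on intergenic reads, or with seeds thinned to 20000 counts. RGL1 was not fitted in these settings, and the call lost was that of RGA1 in the first and of RGL2 in the others. In large seeds over time the number of members called was 5, and 3 with that average and the filter on intergenic reads. There RGL1 was not fitted and RGL2 turned to -0.0491. The fall of RGA1 in small seeds was also lost without 4 of 6 libraries in turn (FDR up to 0.236).

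In the fits, changes of sign otherwise concerned values near 0 that were not called. Between medium and large dry seeds, RGL3 was 0.0257 in thinned libraries, and with libraries left out RGL3 ranged from -0.193 to 0.0660 and RGL2 from -0.501 to 0.0552. With libraries left out, RGL3 at 3d ranged from -0.30 to 0.00601. The interaction of RGL2 was 0.0205 with upper-quartile factors, 0.0552 with the filter on intergenic reads and -0.13 to 0.0381 with libraries left out. That of RGL3 was -0.0109 with no filter on low counts, -0.234 with limma and -0.19 to 0.20 with libraries left out. The share of small seeds with RGA1 changed by -12.4 percentage points between 3d and 7d24h in thinned seeds and by 1.04 in seeds not thinned, and that of RGL2 between sizes at 3d was -0.451 to 10.4 with libraries left out.

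Counts of all genes called moved more: 652 to 1221 between small and large dry seeds, 5 to 35 between medium and large, 22 to 325 at 3d, 2 (without large seed library 2) to 1317 at 7d24h and 16 to 458 in the interaction. With limma, 10254 genes were higher and 1231 lower in small seeds over time, against 5225 and 4530, since its median change over genes was 0.392 and not 0.057. The seed pool as a replicate block gave 1221, 311 and 24 genes in the dry comparisons and changed no other call on a member. The sources used here do not say what equal library numbers of single seeds share. Pairs of equal number correlated between -0.0673 and 0.284, with 4 of 18 over 0.1. Pairs of unequal number correlated between -0.259 and 0.125, with 2 of 36 over 0.1. As a replicate block the library number gave 92 genes at 3d, 897 at 7d24h and 155 in the interaction. Without the block these were 55, 362 and 53, and no call on a member changed. RGL1 at 3d and RGA1 in dry seeds are limited by depth.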
